A study of Homo sapiens with 30 samples.

Results

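The iCLIP signal listed for LARP6 after deletion of its La-module was described from the pooled peak list of the ΔLa-module variant. All 636 peaks of that list were used, out of 48311 peaks in the 5 lists of the series, and they were set against the 14334 peaks of full-length LARP6 (FL). LARP6 is a cytoplasmic RNA-binding protein of the La-related family, known for binding the mRNAs of type I collagen. Its La-module couples a winged-helix domain, the La motif, to an RRM, and both folded domains grip RNA together. In genuine La protein this module holds the 3′ ends of newly made RNA polymerase III transcripts such as tRNA precursors, and in the La-related proteins it has been turned to other RNAs. iCLIP joins a protein to the RNA it touches by UV light, purifies it with an antibody and reads the crosslinked position from where cDNA synthesis stopped.

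The cells were U-87 MG, an established human glioblastoma line. Stable lines carried pCW57.1, a lentiviral vector with puromycin selection, from which 60 ng/mL doxycycline for 24 h induced a myc-tagged LARP6 variant. The FL line expressed the whole protein and the ΔLa-module line a protein without the folded module, which kept the disordered N-terminal region (NTR) and the C-terminal region. The other lists come from ΔNTR, ΔCTR and ΔNTD, the last lacking the NTR and the La-module together. Every line also kept its own LARP6, and all were grown under the same doxycycline dose, including the parental cells without a variant that served as the negative control. Each variant had 3 iCLIP samples, which the authors merged into 1 list before they subtracted the peaks of the parental cells. No replicate values were therefore at hand for any list, and all intervals given here are 95% intervals that cover counting error only. The authors reported no RNA binding in cells for ΔLa-module and ΔNTD and left both out of their further analysis. RNA held by the variant and background that the subtraction left cannot be told apart in the peaks described here.

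In the long-RNA library of the ΔLa-module line, LARP6 had 1619 counts, or 56.4 CPM (counts scaled to the library total), against 61.3 CPM in the FL line and 53.8 CPM in parental cells. The induced sequence was codon-optimised, so counts on the LARP6 gene may miss it, and they check neither the deletion nor the amount of each protein. Of 7 glioma and mesenchymal markers, VIM, CD44, EGFR, NES and SOX9 had 1494 to 222278 counts in that library. GFAP and S100B, the classical astrocyte markers, had 4 counts and 1 count. Markers of immune cells had at most 2 counts, those of endothelium at most 28 and those of epithelium at most 48, while SNAP25 alone among the neuronal markers was above 11 counts, with 1658.

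The highest-scored sites left lay in small structured RNAs, in mitochondrial transcripts and in the nuclear RNA MALAT1, and hardly any lay in 3′UTRs. Strong ΔLa-module peaks of each kind are given here as 30 nt of the human genome (GRCh38) around the peak centre, 5′ to 3′ on the transcribed strand, with the ACTB peak that lay on the strongest FL site of all as the last. Capitals mark the bases inside the ΔLa-module peak, and a line wholly in capitals is the middle of a wider peak.
TRL-AAG4-1 (leucine tRNA): tggccGAGTGGTCTAAGACGCTGGattaag
TRU-TCA1-1 (selenocysteine tRNA): ctggGGTGCAGGCTTCAAACCTGTAGctgt
TRE-TTC3-1 match (glutamate tRNA): gtgctTGCTGTTGTTTCCCCGGTGgtctag
TRR-TCG1-1 (arginine tRNA): ATGGATAAGGCGTCTGACTTCGGATCAGAA
RMRP (RNase MRP RNA): GTTCCTCCCCTTTCCGCCTAGGGGAAAGTC
RNVU1-2A (variant U1 snRNA): gctgaGGCTTATTCATTGTACTCCggatgt
LINC01819 (intron): acatgtGGAAGCTCAAAATACAGgactctc
MT-TT (mitochondrial threonine tRNA): TATAAACTAATACACCAGTCTTGTAAACCG
MALAT1 (nuclear lncRNA): AGTTTAGTTTAAAAGTTGTAGGTGATTAAA
HSP90AA1 (coding sequence): AAGAAGAAGATTAAGGAAAAGTACATCGAT
VIM (coding sequence): CTGATTAAGACGGTTGAAACTAGAGATGGA
ACTB (3′UTR): attGTTGTTTTTTTAATAGTCATTCCaaat

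The stretches printed for the nuclear tRNAs were chr6:28478668-28478697 (minus strand), chr19:45478637-45478666 (minus), chr1:149692863-149692892 (minus) and chr15:89335087-89335116 (plus). Those of RMRP, RNVU1-2A and LINC01819 were chr9:35657943-35657972, chr1:144551863-144551892 and chr2:43011121-43011150, all on the minus strand. MT-TT was taken from chrM:15898-15927 (plus), MALAT1 from chr11:65499442-65499471 (plus) and HSP90AA1 from chr14:102084804-102084833 (minus). The VIM stretch was chr10:17236347-17236376 (plus) and that of ACTB chr7:5527491-5527520 (minus).

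A first question was how much of the list could stand on more than 1 sample. The authors called peaks in each sample with a minimum of 3 counts, and the score of a merged peak is the sum over the samples, so a score below 6 can come from 1 sample only. Of the 636 ΔLa-module peaks, 488 had the lowest possible score of 3 and 596 (93.7%, 91.5 to 95.3%, Wilson interval) had a score below 6. In the FL list the share below 6 was 74.1% (73.4 to 74.8%). Peaks were also narrower in the ΔLa-module list: 444 (69.8%, 66.1 to 73.3%) were exactly 17 nt wide, against 30.6% (29.9 to 31.4%) of FL peaks. The median widths were 17 and 22 nt. Widths were not compared at equal score, and a score of 3 was held by 76.7% of ΔLa-module and 53.7% of FL peaks.

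Each peak was put into 1 class by its centre: mitochondrial, tRNA or another structural small RNA (by sequence match, whatever gene it lay in), MALAT1, mRNA coding sequence, 5′UTR or 3′UTR, other introns, and the rest. The small RNA and MALAT1 classes were chosen after the values had been seen. Only 40 ΔLa-module peaks reached a score of 6. Of these, 11 lay in tRNA, 10 in MALAT1, 8 in mitochondrial RNA, 4 in other small RNAs, 4 in coding sequence, 3 in introns, and 0 in a 3′UTR or 5′UTR, which allows a share of up to 8.76% for 3′UTRs. In FL, 3711 peaks reached that score, and 1962 of them (52.9%, 51.3 to 54.5%) were in 3′UTRs against 36 (0.970%) in tRNA and 17 (0.458%) in MALAT1. The 488 ΔLa-module peaks of score 3 had another make-up, with 157 in introns, 129 in coding sequence, 129 in 3′UTRs and 2 in tRNA.

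Over the whole lists the summed score of the ΔLa-module peaks, 2320, was 2.26% (2.17 to 2.35%) of the FL sum, 102788. Neither list was scaled to its sequencing depth, so this ratio holds any difference in depth. Sites under the minimum score are not listed at all, and the share of FL peaks at that minimum was 49.8% in 3′UTRs, 54.7% in coding sequence, 45.8% in MALAT1, 14.8% at tRNA and 15.5% in mitochondrial RNA. The part of this minimum, and of depth acting through it, in the differences between classes was not tested. The ratio was 0.927% (0.847 to 1.01%) in 3′UTRs, 1.63% (1.5 to 1.78%) in coding sequence and 1.76% (1.38 to 2.22%) in 5′UTRs. It was 10.7% (9.17 to 12.3%) at tRNA sites, 11.9% (10.1 to 13.8%) in mitochondrial RNA, 4.76% (3.75 to 5.95%) at other small RNAs and 49.3% (40.1 to 60.5%) in MALAT1. Introns, whose peaks were nearly all outside the FL sites, came to 9.54% (8.72 to 10.4%). Since peaks were called in each list separately, these sums also move with the length called. ΔLa-module peaks covered 439 nt at tRNA (1203 in FL), 845 nt in MALAT1 (1450), 2974 nt in introns (22130) and 3005 nt in 3′UTRs (190240). The mean score per peak was 11.1 at tRNA (34.6 in FL), 5.30 in MALAT1 (6.04), 3.18 in introns (5.02) and 3.19 in 3′UTRs (7.86). The 3 classes of mRNA exon had the lowest ratios, and their intervals did not overlap those of the other named classes. The 102 ΔLa-module peaks in tRNA, other small RNA, mitochondrial RNA and MALAT1 made up 16.0% of the list and 26.1% of its score, against 2.07% and 5.24% in FL.

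The strongest FL sites separated the classes most clearly. A ΔLa-module peak overlapped 155 of the 14334 FL peaks (1.08%), and that share rose with the FL score, from 19 of 7694 (0.247%) at a score of 3 to 11 of 57 (19.3%, 11.1 to 31.3%) at 100 or more. Of those 57 sites, 43 were exonic mRNA sites and 1 of them kept a peak (2.33%, 0.412 to 12.1%), while 7 of 9 at tRNA and other small RNAs did (77.8%, 45.3 to 93.7%). These were all 6 tRNA sites, with 921 in FL and 127 in ΔLa-module, but only 1 of 3 other small RNA sites, with 652 and 4. Of 4 intronic sites 3 kept a peak, with 528 and 25. In summed score the 43 mRNA sites went from 9629 to 4 and the 9 small RNA sites from 1573 to 131. The 1 mRNA site was in the 3′UTR of ACTB (β-actin), where a score of 2098 in FL was left at 4. HNRNPH1 (an hnRNP splicing regulator; 720 in FL at its 3′UTR site), YWHAE (a 14-3-3 protein; 555 at a coding site) and CTNNA1 (α-catenin; 305) kept no ΔLa-module peak at these sites. Among the small RNAs, RN7SL1, the 7SL RNA of the signal recognition particle, had 350 in FL and 4 in ΔLa-module. At FL scores of 10 to 99 the same shares were 40 of 1669 (2.40%, 1.76 to 3.25%) for mRNA exons and 18 of 55 (32.7%, 21.8 to 45.9%) for small RNAs.

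**Figure D1:**
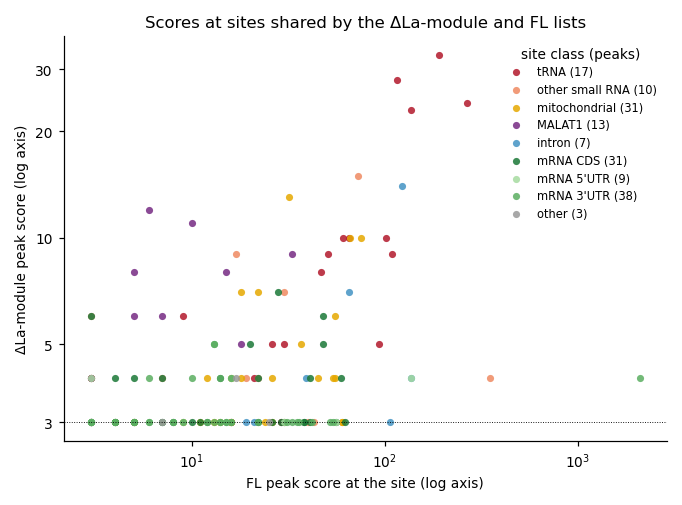
Score of each of the 159 ΔLa-module peaks that overlapped an FL peak (vertical, log axis) against the summed score of the FL peaks it overlapped (horizontal, log axis), coloured by class; the dotted line is the minimum score of 3. The 4 highest points are tRNA sites, mRNA points lie at 7 or below whatever the FL score, and the point farthest right is ACTB (2098 against 4).

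At the level of peaks, 159 ΔLa-module peaks (25%, 21.8 to 28.5%) overlapped an FL peak by at least 1 nt on the same strand, and they held 34.1% of the score. Their summed score was 790 against 6630 for the FL peaks beneath them, 11.9% (11.1 to 12.8%). Because no score under 3 is listed, a weak FL site can be seen again only at a high ratio, so this figure describes sites that stayed above the minimum and not the average site. Counting the other lists too, 408 ΔLa-module peaks (64.2%, 60.4 to 67.8%) overlapped no peak of any of them, with a median score of 3, and 25 overlapped all 4, with a median score of 8. By list, 27.2% overlapped ΔNTR, 24.4% ΔCTR and 4.56% ΔNTD peaks, the last list being the shortest with 291 peaks.

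tRNAs carry amino acids to the ribosome and are transcribed by RNA polymerase III as precursors that are trimmed at both ends. Reads that matched rRNA or tRNA sequences had been discarded by the authors before alignment, so the peaks come from reads that escaped that step, and its part in the values was not tested. In the ΔLa-module list 18 peaks matched a tRNA sequence over at least 28 nt at 90% identity, most of them annotated as introns of the gene around them. There were 13 at a tRNA gene of RefSeq (GRCh38.p14) on the same strand, and 17 overlapped an FL peak. All of the 4 highest-scored peaks of the list were of this kind.

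The highest was at TRL-AAG4-1, where ΔLa-module scored 33 and FL 191, with 82 for ΔCTR, 69 for ΔNTR and 12 for ΔNTD. Second came TRU-TCA1-1, the selenocysteine tRNA gene inside an ERCC1 intron, at which ΔLa-module scored 28 and FL 116, with 70 for ΔCTR, 42 for ΔNTR and 6 for ΔNTD. A site matching glutamate tRNA on chromosome 1 had 24 for ΔLa-module and 267 for FL, beside 154 for ΔCTR, 113 for ΔNTR and 28 for ΔNTD. TRR-TCG1-1, an arginine tRNA gene within POLG-DT, followed with 23 for ΔLa-module and 137 for FL, beside 106 for ΔCTR, 48 for ΔNTR and 8 for ΔNTD. FL was the highest of the 5 lists at each of these 4 sites, and the ΔLa-module score lay between 8.99% and 24.1% of it.

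Further down, AIM2 (TRR-TCT4-1; 10 against 61 in FL), AGBL5 (an alanine tRNA; 10 against 65), FBXO31 (TRM-CAT6-1; 9 against 109) and ARMH4 (TRK-CTT1-1; 5 against 30) had the same form of peak. A lysine tRNA match in an intron of BCAS3 had 5 against 93, the lowest share of FL among them at 5.38%. The median share over the 17 shared tRNA sites was 16.8%. What was left thus varied by site. The transcripts around these tRNAs ranged from 0 to 2452 counts in the input, with 3 for POLG-DT and 238 for AIM2. Of the 13 peaks at annotated tRNA genes, 2 had their centre just before the first base of the gene, 7 within its first 35 nt and 4 beyond.

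Among other small RNAs, RMRP, the RNA component of the RNase MRP ribozyme, had 4 ΔLa-module peaks. The highest scored 15, against 73 for FL, 53 for ΔCTR, 114 for ΔNTR and 4 for ΔNTD. At the others ΔLa-module had 5, 4 and 3 against 0, 22 and 40 in FL, so that 1 RMRP peak lay where FL had none. With the FL peak of 40, whose centre lay outside the annotated gene, the RMRP sum was 27 against 150, or 18% (11.5 to 27.2%). U1 snRNA, which recognises 5′ splice sites, was represented by variant genes: RNVU1-2A scored 9 against 17 in FL, RNVU1-31 7 against 30 and RNVU1-7 6 against 3. Reads of near-identical copies cannot be divided between them with certainty. By family, the ΔLa-module score was 12.5% (8.4 to 18.2%) of FL at snRNAs and 0.495% (0.135 to 1.27%) at 7SL, and those intervals did not overlap.

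MALAT1, a long non-coding RNA of nuclear speckles, was the gene with the most ΔLa-module signal. ΔLa-module had 27 peaks there with a summed score of 143, and FL 48 peaks with 290. The other lists had 266 (ΔCTR, 48 peaks), 299 (ΔNTR, 40 peaks) and 6 (ΔNTD, 2 peaks). The ΔLa-module sum was 49.3% of FL (40.1 to 60.5%), and that of ΔNTD 2.07% (0.753 to 4.56%). Against ΔNTD, which lacks the same module and the NTR as well, ΔLa-module peaks in MALAT1 covered 845 nt against 54 nt, and their sum was 23.8 times that of ΔNTD (10.7 to 66.0), whereas the whole lists differed 2.32-fold (2.16 to 2.50). Both ΔNTD peaks were at the minimum score and any weaker site counted as 0, so the 23.8 is a ratio of called sums and not a fold change of binding. The abundance of MALAT1 in the input was 2887 CPM in the ΔLa-module line and 3306 CPM in the FL line.

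Within MALAT1 the order of the peaks differed from that of FL. The highest, chr11:65499431-65499483, scored 12 and overlapped no peak in any other list, the next (chr11:65499703-65499746) scored 12 against 6 in FL, and chr11:65500082-65500114 scored 11 against 10. At the highest MALAT1 site of FL, with 33, the ΔLa-module peak scored 9. Of the 27 peaks, 13 overlapped an FL peak and 4 overlapped none in any list. Before the midpoint of the annotated gene (nt 5217), a division chosen after the values were seen, the ΔLa-module score was 104 and past it 39, against 136 and 154 in FL. NEAT1, another abundant nuclear RNA, had 2 ΔLa-module peaks with a summed score of 7 against 9 peaks with 31 in FL.

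The mitochondrial genome gives mRNAs, rRNAs and tRNAs from long transcripts of both strands, made and kept inside the organelle. It held 42 ΔLa-module peaks (6.60%, 4.92 to 8.81%) against 103 FL peaks (0.719%, 0.593 to 0.871%), a difference of 5.89 percentage points (4.20 to 8.09). The mitochondrial share of input counts in the ΔLa-module line was 2.57%. Of the 42 peaks, 38 were on the plus strand and 31 overlapped an FL peak. FL peaks were dense there, with 98 of 103 on the plus strand and 4176 nt covered in all. The overlap that such coverage gives by itself was not computed. Of the 37 mitochondrial genes, 17 had a ΔLa-module peak, 16 an FL peak and 15 both. Among the 22 with at least 10 input counts, 15 had a ΔLa-module peak and 13 an FL peak. Of all genes with at least 10 counts, 2.59% and 26.1% had one, and 14.6% and 86.8% of those in the most abundant decile. The 22 had a median of 5694.5 counts, which lies in that decile. The part of abundance in these counts was not tested.

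MT-ND4, a complex I subunit, led the mRNAs with a summed score of 24 against 283 in FL. MT-CO1 had 21 against 133, MT-ND5 19 against 187, MT-ND6 17 against 83, MT-ATP6 14 against 129, MT-CO2 13 against 148 and MT-ND1 12 against 56. The ratio ranged from 3.36% in MT-CO3 (4 against 119) to 21.4% in MT-ND1 among the mRNAs with peaks in both lists. MT-TT, the threonine tRNA, kept more with 13 against 32 (40.6%), and MT-RNR2, the large rRNA, had 14 in ΔLa-module, 16 in ΔNTD, 44 in ΔNTR and 0 in FL and ΔCTR. After that MT-TT peak the highest single peaks were in MT-CO2 (10 against 66) and MT-ATP6 (10 against 75).

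On the other chromosomes the shares of both lists mostly lay within counting error. Of 24 chromosomes compared, with intervals not adjusted for their number, chromosome 11 had 8.96% of ΔLa-module peaks against 5.57% of FL peaks, 3.39 points more (1.37 to 5.89). Without MALAT1 it had 4.93% (3.47 to 6.95%) against 5.26% (4.90 to 5.64%), so the excess was that of 1 gene. Chromosome 20 went the other way, with 3 of 636 peaks (0.472%) against 387 in FL (2.7%), a difference of -2.23 points (-2.65 to -1.29), while it held 2.26% of input counts. Chromosomes 8 and 15 were also lower in ΔLa-module and chromosome 10 higher, each by at most 1.61 points and with an interval that came close to 0.

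In mRNAs, 340 ΔLa-module peaks lay in exons, and their summed score of 1098 was 1.22% (1.15 to 1.29%) of FL. VIM, which encodes vimentin, the intermediate filament protein of mesenchymal cells, had the most, 11 exonic peaks with a score of 39. With its 1 intronic peak it had 12 peaks with 42, against 24 peaks with 489 in FL and a score of 12 in ΔNTD. Its highest peaks, 6 and 5, lay in the coding sequence, both under a single FL peak of 48. DCBLD2, a transmembrane receptor, had 6 peaks with 23 against 484 (5 with 19 in exons), HSP90AA1 (the inducible HSP90 chaperone) 5 with 20 against 259, and FLNC (filamin C) 4 with 13 (4.56% of FL). Only 4 mRNA peaks reached a score of 6, all in coding sequence: HSP90AA1 at 7 (28 in FL), VIM at 6, CFL1 (cofilin, which severs actin filaments) at 6 with no FL peak there, and RACK1 (a ribosomal scaffold) at 6 against 3.

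Of the 10 genes with the highest FL score, 7 had a ΔLa-module peak, on an FL site or elsewhere in the gene, at a small fraction of the FL score. Of all genes with at least 10 input counts 2.59% had one, and 14.6% of those in the most abundant decile. ACTB had 8 against 2098 (0.381%, 0.164 to 0.753%), PGK1 (a glycolytic kinase) 11 against 1238 (0.889%), CD44 (the hyaluronan receptor) 6 against 684, FN1 (fibronectin) 9 against 493 and COL6A3 6 against 460. HNRNPH1 with 720 in FL, YWHAE with 620 and PKM (pyruvate kinase) with 540 had none, which allows up to 0.514%, 0.597% and 0.685% of the FL score. VIM at 8.59% (6.11 to 11.8%) and DCBLD2 at 4.75% (2.98 to 7.22%) were the highest of these 10. The interval of VIM lay above those of the other 8 and that of DCBLD2 above all of these except FN1 (1.83%, 0.830 to 3.49%). Over all genes, a ΔLa-module peak was found in 364 of the 4873 that FL bound (7.47%). COL1A1, a known target, had 47 FL peaks with 452 and no ΔLa-module peak, an upper limit of 0.819%.

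Introns held 23.7% of the ΔLa-module score in weak single peaks, with a mean score of 3.18. Outside small RNA matches there were 173 intronic peaks (27.2%, 23.9 to 30.8%) against 8.02% (7.58 to 8.47%) in FL. Of these, 157 had a score of 3, 165 were 17 nt wide, and 166 (96.0%, 91.9 to 98.0%) overlapped no peak in any other list. They lay in 170 genes, nearly 1 to a gene, and only 15 were within 1000 nt of an FL peak. The highest that no other list shared was in ENSG00000243620, with 6, followed at 4 by, among others, DCBLD2, PTPN11, MED13L, SP100, VEPH1, FBXW8, CMSS1, CDK8, ZDHHC17 and EVC2. With a score of 3 in 1 sample of 3, such peaks cannot be told from single-sample events here.

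Only 7 overlapped an FL peak, and 2 of them were present in all lists. LINC01819 had 14 in ΔLa-module and 123 in FL, with 40 for ΔCTR, 10 for ΔNTR and 3 for ΔNTD. SH3RF3 had 7 in ΔLa-module and 65 in FL, with 54 for ΔCTR, 26 for ΔNTR and 4 for ΔNTD. Neither host transcript had a count in the input of the ΔLa-module line. BRINP1 had 4 against 39 in FL with 1 count, and PGK1 had intronic peaks of 4 and 3 where FL had 137 and 107.

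By gene type, 552 ΔLa-module peaks (86.8%, 83.9 to 89.2%) were in protein-coding genes against 96.8% (96.5 to 97.0%) in FL. The lncRNA share was 9.43% (7.4 to 12%) against 2.23% (2.00 to 2.49%), and 27 of those 60 peaks were the ones in MALAT1. Gene type follows the host gene, so the 60 also held tRNA matches inside lncRNA genes. Those in ENSG00000287804, ENSG00000290790 and POLG-DT were among them. snRNA genes held 7 peaks (1.10%, 0.534 to 2.25%) against 24 (0.167%, 0.113 to 0.249%), and mitochondrial tRNA and ribozyme genes 4 each. The share outside protein-coding genes was 9.97 points higher in ΔLa-module (7.54 to 12.8), and 26.9 points higher among peaks with a score of at least 4.

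The abundance of each gene was taken as its counts in the sense strand of the long-RNA library of the ΔLa-module line, 28692476 in all. Of 17824 genes with at least 10 counts, 462 (2.59%) held a ΔLa-module peak and 4651 (26.1%) an FL peak. The median count was 4448 for the genes with a ΔLa-module peak (quartiles 1733 and 12136), 2358 for those with an FL peak and 351 for all 17824. Genes with an exonic ΔLa-module peak had a median of 6466 counts against 2538 for FL, and hosts of intronic peaks 2986 against 2045. The intronic hosts were also long genes, with a median span of 110422 nt against 91339 nt for FL hosts.

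Genes were then ranked by counts into 10 deciles, of which decile 10 was the most abundant. In it 260 of 1783 genes (14.6%, 13 to 16.3%) had a ΔLa-module peak, against 73 (4.10%, 3.27 to 5.12%) in decile 9 and 1 (0.0561%) in decile 1. FL rose earlier, with 9.60% in decile 5, 63.8% in decile 9 and 86.8% in decile 10. Of all ΔLa-module genes with at least 10 counts, 56.3% were in decile 10, and of FL genes 33.3%. By this share the ΔLa-module list was more confined to abundant transcripts than that of FL. FL already had a peak in most genes of decile 10, and the lists were not compared at equal length. The parts of list length and sequencing depth in this cannot be told apart here. Across the 462 genes the rank correlation of ΔLa-module score with input counts was 0.303, and across 4651 FL genes 0.541, given as descriptions since genes share the libraries.

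Per 1000 input counts, the highest ΔLa-module scores among genes with at least 100 counts were those of AIM2 at 42 (256 in FL), PPP1R13L at 29.1 (0 in FL), RNU5F-1 at 25.6 (103), ZNF767P at 24.2 (78.5) and KYAT3 at 20.1 (0). AIM2 and ZNF767P are hosts of tRNA genes and RNU5F-1 is a U5 snRNA copy. The AIM2 peak and the higher of the 2 ZNF767P peaks were tRNA matches. Their scores are thus set against counts of the host gene, which do not measure the tRNA. RNU5F-1, PPP1R13L and KYAT3 each rest on a single peak of score 3.

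Lists of genes chosen for the biology of LARP6 were then counted for any ΔLa-module peak, whether or not on an FL site, beside the background of 2.59% of all genes with at least 10 counts. Of 29 genes in a list of the cytoskeleton, actin genes and VIM, 15 had a ΔLa-module peak and 25 an FL peak, with a summed score of 129 against 5295 (2.44%, 2.03 to 2.90%) and a median of 19564 input counts. Without VIM, 14 of 28 had one, with 87 against 4806 (1.81%, 1.45 to 2.24%). In 8 of the 15 a peak lay on an FL peak. Besides VIM and ACTB, those 8 included ACTG1 (12 against 364), PFN1 (profilin, 11 against 194), CFL1 (9 against 81) and TMSB10 (6 against 71). MYH9 (non-muscle myosin, 7 against 228) had no peak on an FL peak. The same held for ACTN1, TPM3 and VCL, with 1 peak of score 3 each. Of 18 glycolysis genes 5 had one: PGK1, GAPDH (7 against 145), ENO1 (4 against 308), LDHA (3 against 183) and HK1 (3 against 25), and in 4 of them a peak lay on an FL peak. The extracellular matrix list had 5 of 19 genes, FN1 and LOX among them, at 1.92% (1.31 to 2.73%) of the FL score, and in 3 of them a peak lay on an FL peak. The median input of the cytoskeleton list, like those of glycolysis (10525.5) and matrix (10372), lay in decile 10. In that decile 14.6% of all genes had a ΔLa-module peak and 86.8% an FL peak. The part of abundance in the counts of these lists was not tested.

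Of 68 translation factors 7 had a peak (EEF2 with 6 against 184, EIF3A with 4 against 4, and EEF1D, EIF3D, EIF4A3, EIF4G2 and PABPC1 with 3 each), where FL had 34, and in 2 of them a peak lay on an FL peak. Of 84 cytosolic ribosomal protein genes, whose mRNAs are very abundant, 3 had one (RPS12, RPS16 and RPS24), none of them on an FL peak, and 52 had an FL peak. The 84 had a median of 9689 input counts, in decile 10. A ΔLa-module peak was in 3.57% (1.22 to 9.98%) of them and an FL peak in 61.9%. Of all genes in decile 10 the shares were 14.6% and 86.8%, so both lists were lower here. The part of transcript length in this was not tested. HNRNPDL alone of 21 hnRNP genes had one (4.76%, 0.846 to 22.7%), as did COL6A3 alone of 23 other collagens (4.35%, 0.772 to 21.0%). Both intervals held the 2.59% of all genes with at least 10 counts. Type I collagen (0 of 2), SR proteins (0 of 11) and replication-dependent histones (0 of 60) had none. Their upper limits, 65.8%, 25.9% and 6.02%, all lay above the 2.59% of all genes. These counts of 0 thus do not set the lists apart. FL had 2, 7 and 20 of them, or 100%, 63.6% and 33.3%, against 26.1% of all genes. A list of long non-coding RNAs held MALAT1, NEAT1, KCNQ1OT1, MEG3 and otherwise only genes named SNHG. Of its 26 genes with at least 10 counts, 3 had a ΔLa-module peak: MALAT1, NEAT1 and SNHG29 (4 against 89).

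UV crosslinking is known to favour uridine, read as T in the genome. T stood at the centre of 38.7% (35 to 42.5%) of ΔLa-module peaks and 31.9% (31.1 to 32.7%) of FL peaks, and the difference was also there among peaks of 17 nt, at 42.8% (38.3 to 47.4%) against 36.8% (35.4 to 38.3%). Over 31 nt around the centre, ΔLa-module peaks held more A (26.3% against 23.4%) and less G (21.2% against 24.1%), with C and T together at 52.5% and 52.4%. The 5-letter run AAAAA was found in 6.13% (4.52 to 8.27%) of ΔLa-module windows and 3.63% (3.33 to 3.95%) of FL windows, and TTTTT in 8.96% (6.98 to 11.4%) against 7.74% (7.32 to 8.19%), both read on the peak's strand only. Within 3′UTR peaks the T share was 34.2% against 31.7%, within introns 30.7% against 29.6%, and within coding sequence 23.2% against 23.6%.

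The ΔNTD list, 291 peaks with a summed score of 999, gave a second look at loss of the same module. Its tRNA sites kept 4.72% (3.76 to 5.84%) of the FL score and its 3′UTR sites 0.471% (0.415 to 0.533%), so tRNA again stood above 3′UTRs. The FL list, the parental subtraction and the minimum score were the same as for ΔLa-module, so this is not an independent repeat. Of the 18 ΔLa-module tRNA sites, 9 overlapped a ΔNTD peak, of the 15 at other small RNAs 4, and of 173 intronic ones 2. The summed ΔLa-module score of called peaks exceeded that of ΔNTD 2.26-fold (1.75 to 2.94) at tRNA sites, 1.97-fold (1.69 to 2.3) in 3′UTRs and 2.10-fold (1.81 to 2.46) in coding sequence, near the 2.32-fold of the whole lists. It exceeded it 5.11-fold (3.56 to 7.52) in mitochondrial RNA and 23.8-fold in MALAT1, where ΔNTD had 9 and 2 peaks. Sites under the minimum score count as 0 in both sums, and the part of this in the higher values was not tested.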

How the data were processed

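Per the methods of the study and the deposited labels, the authors trimmed the iCLIP reads, discarded those matching rRNA or tRNA with Bowtie2, aligned the rest to GRCh38.p13 with STAR, removed PCR duplicates with UMI-tools, called peaks with Clippy in each of 3 samples (minimum of 3 counts a peak), merged them with summed scores and removed peaks found in parental cells using bedtools. That sum is the deposited score, and it was not scaled to depth. The submitters' processing notes name bedtools 2.30.0, Trim Galore 0.6.10 and STAR 2.7.10b. The deposited counts per gene are raw STAR counts of 1 long-RNA library per line (28692476 sense counts in the ΔLa-module line, 27935221 in the FL line, used as an alternative), and 62625 of 62750 gene identifiers matched GENCODE 44 once version suffixes were dropped.

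Peaks were assigned by their centre, on their strand, to CDS, 5′UTR, 3′UTR, ncRNA exon, intron or intergenic sequence in that order (GENCODE 44), within a region to protein-coding genes first and then to the smallest gene. Overlaps used bedtools 2.31.1 (1 nt, same strand). Windows of 61 nt around centres were matched by BLAST 2.17.0 to structural small RNAs of GENCODE and tRNA genes of RefSeq (GRCh38.p14). Shares have Wilson and ratios exact binomial intervals (scipy 1.17.1), differences Newcombe intervals, all at 95%. Each treats peaks or score units as independent counts, and no p-value was computed since pooled lists have no replicates. The functions were tested on simulated lists. Named were the 15 genes with the highest ΔLa-module score, the 10 highest peaks in all, shared with FL and in no other list, the 10 highest FL genes, the 5 highest scores per input count, and members of the gene lists, XIST and Y-linked genes left out. Genes outside this rule, such as CTNNA1, RN7SL1, COL1A1 and the further tRNA hosts, were picked after their values were seen. Members, lists and classes were chosen with earlier results of these data known. The small-RNA libraries and the other long-RNA libraries were not used here, except LARP6 counts in parental cells. A few genes that the rule names are not reported here.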

Additional observations from a re-analysis of the deposited data

How the results depend on the processing

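No paired analysis was possible because each list pools its 3 samples and carries no replicate number, and each line had 1 input library, so that leaving out single replicates was not possible either. Of 66 recomputed values for 30 results, 30 moved by less than their counting interval, 36 moved and 0 of the differences larger than their counting error changed sign. The difference in C and T, close to 0 over all peaks, was negative in introns. The alternatives at a score of 6 or more, those on small RNA matches and MALAT1, and those without the highest FL peak were chosen after seeing the data. ΔLa-module peaks as a percentage of FL peaks (4.44) came to 2.23 at a score of 4 or more, 1.08 at 6 or more, 5.13 with peaks within 50 nt merged and 3.80 without mitochondrial, small RNA and MALAT1 sites. Differences of ΔLa-module minus FL, in percentage points, depended on the score. At 4 or more they were 16.1 for introns (21.5 in all peaks), -33.4 for 3′UTRs (-23.2), 26.9 for peaks outside protein-coding genes (9.97), 13.6 for the mitochondrial chromosome (5.89) and 8.32 for chromosome 11 (3.39). At 6 or more the intron difference was 28.1 and the 3′UTR difference -53.0, the former counting tRNA sites inside introns. At a score of 3 alone the 3′UTR difference was -17.8 and the one outside protein-coding genes 4.98. The share of ΔLa-module peaks that overlapped FL (25%) was 12.7% with an overlap of 50% of both peaks, 35.5% within 100 nt, 51.4% at a ΔLa-module score of 4 or more and 82.5% at 6 or more, and the share found in any other list (35.8%) was 24.8% with the 50% overlap. The score ratio at shared sites (11.9%) was 20.4% per nt of peak. The ratio of median input (1.89) was 1.47 in TPM, 2.55 for exonic and 1.25 for intronic peaks, and decile 10 (14.6%) held 11.5% with deciles of TPM. Of 55 listed genes with a ΔLa-module peak, 27 had a score of 4 or more. The difference in C and T (0.0665 points) was 3.56 in 3′UTRs, -2.23 in introns and 1.5 in coding sequence. With a match of at least 40 nt at 95% identity the tRNA ratio (10.7%) was 12.5% and that of other small RNAs (4.76%) 6.18%. The cause of these moves was not tested, apart from the fewer peaks that a higher score leaves. With scores this low, and samples merged, the spread between samples could not be given for any value.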
